A study of Mus musculus with 14 samples.

Results

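The genes described here are 9 regulators that build the embryonic gonad: Wt1, Gata4, Gata6, Zfpm2, Lhx9, Six4, Osr1, Nr0b1 and Cbx2. They were followed in whole mouse ovaries after deletion of Coup-tfII (Nr2f2), a nuclear receptor. Members were all probe sets that the array's annotation assigns to one of these symbols alone. This gave 20 of the 45037 probe sets other than controls, and 9 of the 18193 genes with a probe set of their own. All 9 genes passed the low-signal filter (mean log2 signal over the 14 arrays above that of a signal of 62.0) and were among the 12406 genes tested, as were 18 of the 20 probe sets.

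There were 4 knockout and 4 control arrays at E16.5, and 3 knockout and 3 control arrays at E14.5, each labelled a biological replicate. The knockout model is WT1-CreERT2; COUP-TFII flox/flox, in which a tamoxifen-dependent recombinase under Wt1 control removes the floxed gene. The labels give both groups the same treatment of the dams, tamoxifen at 2 mg per 10 g body weight on E11.5 and again on E12.5. The strain was a mix of C57BL/6, Swiss Webster and B6129SF1/J. Control ovaries are labelled as having Coup-tfII. Whether control embryos carried the recombinase, whether it sits at the Wt1 locus itself, and whether ovaries were pooled is not stated by the labels. Deletion is limited to cells that had Wt1 control active at the time of tamoxifen and to their descendants.

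As background, the gonad arises as a ridge of thickened coelomic epithelium on the mesonephros, and in mice most of these genes are needed for the ridge to form or to grow. Wt1 is a zinc-finger factor of the gonad and kidney, and Gata4 and Gata6 are zinc-finger factors of gonadal somatic cells whose cofactor Fog2 is encoded by Zfpm2. Lhx9 is a LIM homeodomain factor, Six4 a homeodomain factor, Osr1 an early regulator of intermediate mesoderm, Nr0b1 the orphan nuclear receptor Dax1, and Cbx2 a Polycomb subunit.

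Probe sets whose name ends in s_at or x_at hold probes that can match more than one transcript. Values are MAS5 signals, the array's linear brightness scale, and log2 changes are of signal + 16. A gene was read from its brightest probe set (highest mean log2 signal), and probe sets of different genes were not set against each other. Arrays within a group correlated at 0.969 to 0.982. The brightest Nr2f2 probe set had 2053 to 3359 in E16.5 knockouts and 3819 to 4950 in controls (log2 change -0.79 ± 0.22, limma adjusted p = 0.0753), and 155 to 267 in E14.5 knockouts and 217 to 493 in controls. On the Nr2f2 probe set with the largest log2 difference at E16.5, chosen after its values were seen, knockout arrays had 270.0 to 409 and control arrays 1797 to 2227. On the same probe set at E14.5 knockouts had 34.6 to 79.1, and controls 207 and 350, but the array labelled control replicate 1 had 19.3. On the brightest one that array had 217, within the knockout range, and on another it had 268, above all knockouts (161 to 259). On a further probe set it had 362, again within the knockout range (280 to 438). The remaining Nr2f2 probe sets lay under the low-signal filter. There it had 16.1, below all knockouts (25.7 to 40.7), and 6.45, within their range (4.91 to 49.6). On the latter probe set control replicate 3 was also low, with 6.55. E14.5 results are also given without the array labelled control replicate 1. Knockout replicates 1 and 4 at E16.5 stood apart on the bioB hybridization control (9664 and 15920, against 4125 and 5365 on the other knockouts and 3956 to 4761 on controls). E16.5 results are also given without both. The genotypes also separated at E16.5 on the Gapdh control's log2 difference between its 3′ and 5′ probe sets, a measure of RNA quality. It was 0.94 to 1.63 on knockout arrays and 1.67 to 1.83 on controls. The same difference of the beta-actin control overlapped, with -0.018 to 0.27 on knockout arrays and 0.17 to 0.29 on controls. No group's arrays showed Y-linked signal above 48.1. All 10 pregranulosa markers passed the filter, as did 3 of the 5 Sertoli markers. Passing it alone does not show ovarian identity.

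At neither stage did any of the 9 genes pass the test for a difference between knockout and control ovaries. At E16.5 limma called 0 of 9 with an adjusted p under 0.05, and 1.42% of all genes tested were called. At E14.5 it also called 0 of 9, against 0.0403% of all genes. At an unadjusted p under 0.05 there were 2 genes at E16.5 (Wt1 and Osr1) and 2 at E14.5 (Gata6 and Osr1). The median log2 change of the 9 was 0.19 at E16.5 and 0.12 at E14.5, beside 0.053 and 0.028 over all genes tested. At each stage 7 of the 9 had a positive change, and 58.9% of all genes did at E16.5 and 55.3% at E14.5.

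**Figure D1:**
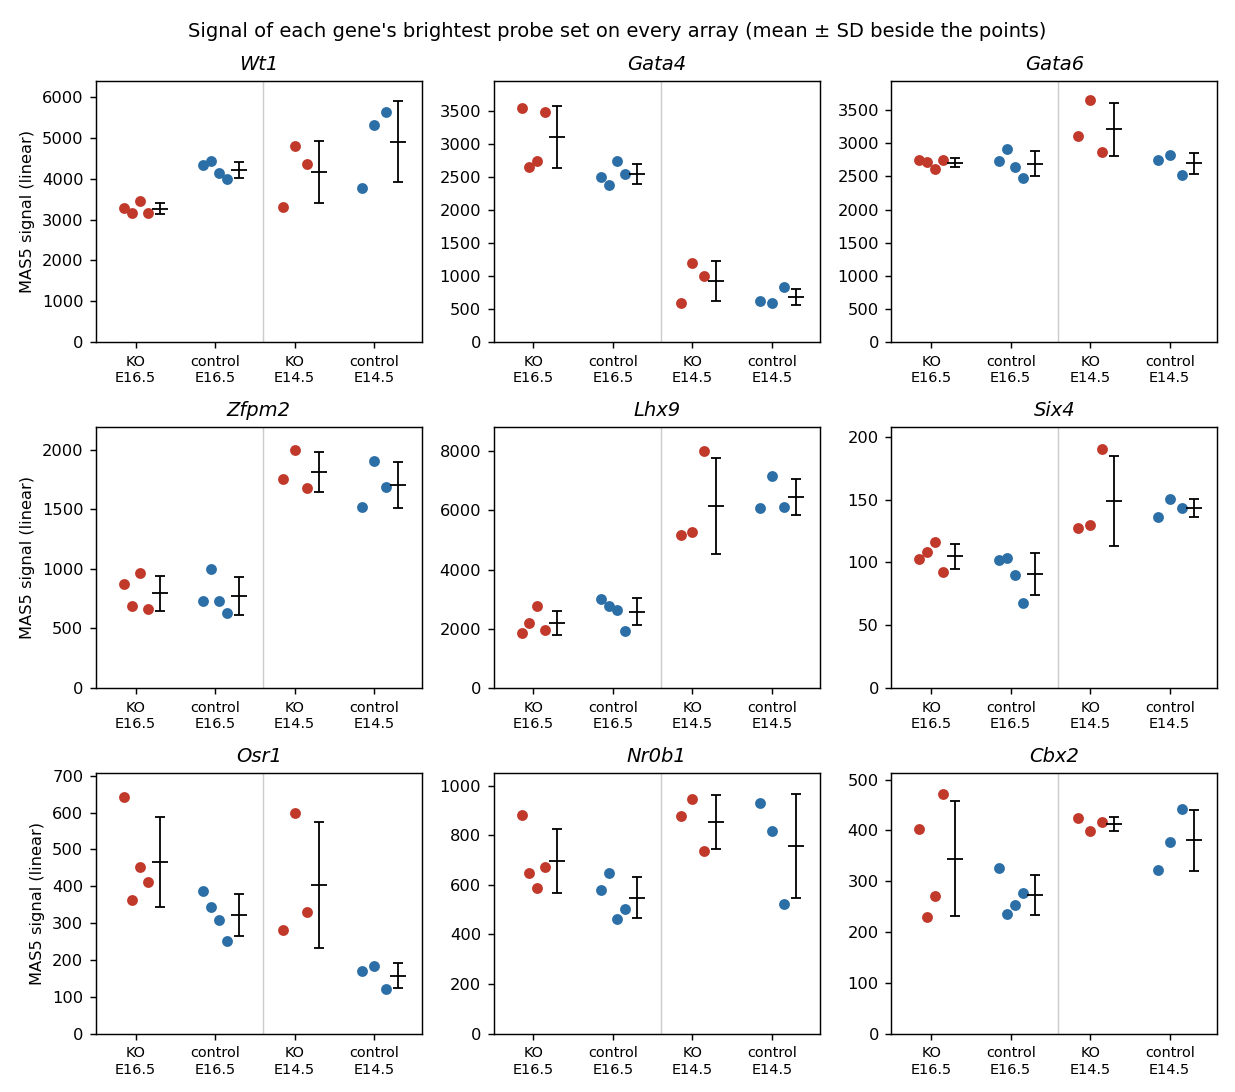
Linear MAS5 signal (vertical axis) of the brightest probe set of each gene on each of the 14 arrays, as points, with the group mean ± SD beside them (KO, knockout; red, knockout; blue, control). Wt1 at E16.5 and Osr1 and Gata6 at E14.5 are the cases in which the knockout and control points do not overlap.

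Wt1 was the only one of the 9 whose E16.5 knockout arrays all lay below all controls. Its single probe set, 1425995_s_at, had 3284, 3167, 3465 and 3156 in E16.5 knockouts, against 4332, 4431, 4131 and 3986 in controls. The means were 3268 ± 143 in knockouts and 4220 ± 200 in controls (SD, n = 4 each), a ratio of 0.774. The log2 change was -0.37 ± 0.13 (SE; limma adjusted p = 0.143), so Wt1 did not pass. Groups that did not overlap with knockouts below made up 4.22% of all genes (10.4% in either direction), and 1 of these 9. Fewer Wt1-expressing cells and less Wt1 RNA per cell cannot be told apart in whole ovaries. The labels do not state whether the recombinase sits at the Wt1 locus or whether controls carried it. An effect of that allele on Wt1 and one of the Nr2f2 deletion therefore cannot be told apart either.

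The Wt1 difference was of similar size without the arrays that stood apart. Leaving out knockout replicates 1 and 4 gave -0.35 ± 0.16 (adjusted p = 0.598), and with the Gapdh difference as a covariate it was -0.46 ± 0.17 (adjusted p = 0.418). At E14.5 Wt1 had 3313, 4792 and 4369 in knockouts, against 3772, 5309 and 5622 in controls, and the groups overlapped. The log2 change was -0.23 ± 0.15 (SE, n = 3 each; limma adjusted p = 0.694). Without the array labelled control replicate 1 it was -0.41 (adjusted p = 0.392), and without knockout replicate 1 it was -0.078 (adjusted p = 0.919).

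Summed markers of cell types that express Wt1 differed in direction. Pregranulosa markers, the supporting lineage of the ovary, had a summed signal of 25222 to 27798 in E16.5 knockouts and 31396 to 32815 in controls. Of the 10, 0 passed in either direction and 7 had a negative change. Surface epithelium markers had a summed signal of 9956 to 14586 in E16.5 knockouts and 6986 to 8269 in controls. Of these, 2 of 7 rose (Krt19 and Upk1b), beside 1.42% of all genes called in either direction. No marker of either list was at 0 on any array, and the part of these lists in the Wt1 result was not tested. Wt1os, the antisense gene at the Wt1 locus, lies outside the membership rule and was chosen after its values were seen. It had 740, 751, 796 and 757 in E16.5 knockouts, against 619, 669, 570 and 621 in controls. Every knockout lay above every control, and 7.81% of all probe sets did not overlap in either direction. The log2 change of Wt1os was 0.29 ± 0.14 (SE, limma adjusted p = 0.420 over all probe sets).

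Osr1 had the largest change of the 9 at E14.5. Its single probe set had 281, 599 and 330 in E14.5 knockouts, against 170, 183 and 120 in controls. All knockout arrays lay above all controls, and the knockout spread (SD 171) was wider than the control spread (SD 33.1). The log2 change was 1.22 ± 0.26 (SE; limma adjusted p = 0.171). It did not pass over all genes. Over 19 alternatives the adjusted p ran from 0.0352 to 0.604. The lowest came without knockout replicate 3 (log2 change 1.32), where Osr1 was called, and the highest without knockout replicate 2 (0.90). Without the array labelled control replicate 1 it was 1.27 (adjusted p = 0.136). At E14.5 knockouts lay wholly above controls for 7.84% of all genes (12.7% did not overlap in either direction), and for 2 of these 9.

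At E16.5 Osr1 had 642, 363, 451 and 411 in knockouts, against 387, 345, 307 and 252 in controls, and the groups overlapped. The log2 change was 0.50 ± 0.23 (SE; limma adjusted p = 0.257). Without knockout replicates 1 and 4 it was 0.33 ± 0.26 (adjusted p = 0.833). Without knockout replicate 1 alone, the array with the highest value, it was 0.34. Osr1 marks mesenchyme and nephrogenic tissue beside the gonad, so lists for those tissues are given with it. Mesonephros markers had a summed signal of 425 to 482 in E14.5 knockouts and 277 to 395 in controls, and 0 of the 3 tested were called. Of these 3, 2 had a positive change and 1 a negative one. Kidney progenitor and podocyte markers summed to 710 to 1428 in E14.5 knockouts and 1402 to 1520 in controls. Of these only Cited1 was tested, with a log2 change of -0.61 and no call. Interstitial markers summed to 15622 to 19033 in E14.5 knockouts and 13079 to 17006 in controls, and 0 of the 6 tested were called. Of these 6, 4 had a negative change (median -0.20), with Wnt5a at -0.71 ± 0.23 and Dcn at 0.63 ± 0.22 (limma adjusted p = 0.397 and 0.417). Other lists also differed at E14.5 without a call, beside 0.0403% of all genes called. Of all genes tested, 55.3% had a positive change at E14.5, and for 12.7% the groups did not overlap. Surface epithelium markers had a positive change in 7 of 7 (median 0.47) and summed to 8321 to 12250 in knockouts and 6212 to 7113 in controls, without overlap. Adrenal markers had a positive change in 3 of 3 and summed to 736 to 998 in knockouts and 385 to 683 in controls, again without overlap. That sum holds 5 markers, 3 of them tested, and the brightest was Hao2 (E14.5 means 501 in knockouts and 239 in controls). Germ cell markers had a negative change in 7 of 8 (median -0.72) and summed to 44375 to 61781 in knockouts and 56584 to 67163 in controls. The part of these cell types in the Osr1 and Gata6 values was not tested.

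**Figure D2:**
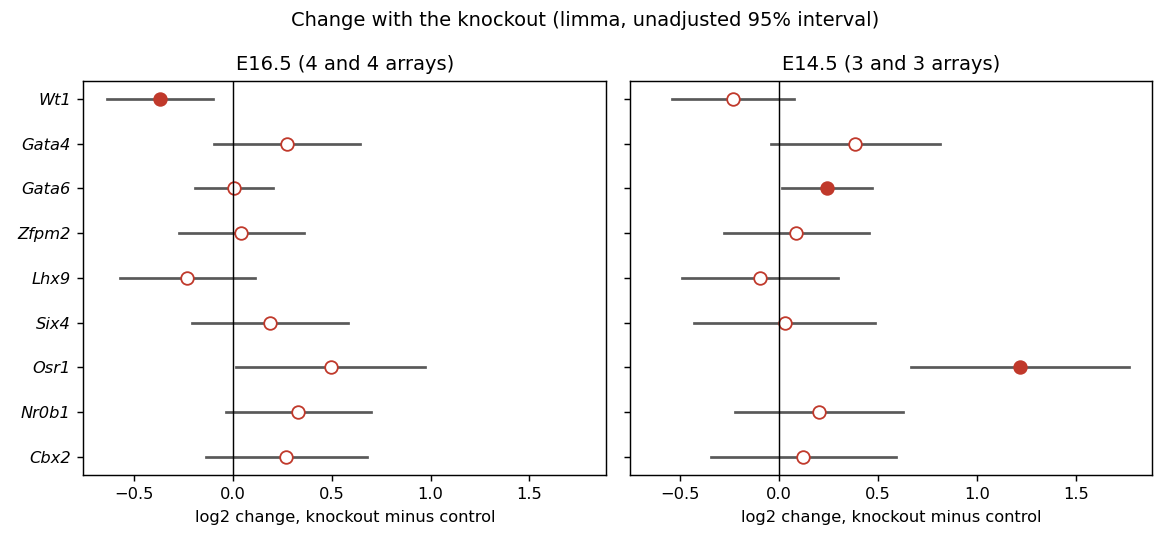
Log2 change of each gene, knockout minus control (horizontal axis), at E16.5 (left, 4 and 4 arrays) and E14.5 (right, 3 and 3 arrays), with unadjusted 95% intervals as lines. Filled points mark genes whose knockout and control arrays did not overlap. The interval of Wt1 at E16.5 lies below 0, and those of Osr1 at both stages and Gata6 at E14.5 lie above it, but 0 of 9 genes passed after adjustment over all genes.

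Neither the GATA factors nor their cofactor passed between genotypes. The brightest Gata4 probe set had 3546, 2652, 2743 and 3477 in E16.5 knockouts, against 2506, 2379, 2746 and 2550 in controls. Knockout replicates 1 and 4 were the high ones, and the other knockouts lay within the control range. The log2 change was 0.27 ± 0.18 (SE; limma adjusted p = 0.425), and 0.085 ± 0.21 without those arrays. At E14.5 Gata4 had 589, 1194 and 994 in knockouts, against 622, 599 and 828 in controls, a change of 0.39 ± 0.20 (adjusted p = 0.627). It was 0.68 without knockout replicate 1, 0.18 without knockout replicate 2 and 0.33 without the array labelled control replicate 1. The dimmer probe set, 1418864_at, had all knockouts above all controls at both stages. It had 1439 to 1849 in E16.5 knockouts and 1267 to 1420 in controls, and 117 to 173 in E14.5 knockouts and 102 to 116 in controls. Its log2 changes were 0.26 ± 0.14 and 0.36 ± 0.16, and neither passed (limma adjusted p = 0.478 and 0.565 over all probe sets).

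Gata6 at E14.5 had 3104, 3656 and 2873 in knockouts, against 2750, 2828 and 2521 in controls. Every knockout lay above every control, by a small margin, with a log2 change of 0.24 ± 0.11 (SE; limma adjusted p = 0.538), and 0.26 without the array labelled control replicate 1. At E16.5 the groups overlapped on this probe set, with 2614 to 2752 in knockouts and 2474 to 2919 in controls. The interval of that difference ran from -0.19 to 0.21 on the log2 scale, and without knockout replicates 1 and 4 the change was -0.013. The other Gata6 probe set above the filter, 1425463_at, overlapped at both stages, with -0.20 ± 0.11 at E16.5 and 0.13 ± 0.13 at E14.5. Zfpm2 overlapped at both stages. It had 659 to 967 in E16.5 knockouts and 626 to 999 in controls, and 1682 to 2000 in E14.5 knockouts and 1524 to 1907 in controls, with intervals of -0.27 to 0.36 and -0.28 to 0.45. The Zfpm2 change was 0.096 at E16.5 without knockout replicates 1 and 4, and 0.0094 at E14.5 without the array labelled control replicate 1.

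The homeodomain genes Lhx9 and Six4 also overlapped between genotypes at both stages. Lhx9 had 1862, 2205, 2772 and 1951 in E16.5 knockouts, against 3008, 2762, 2631 and 1919 in controls, a log2 change of -0.23 ± 0.16 (limma adjusted p = 0.477). Without knockout replicates 1 and 4 it was -0.042. At E14.5 Lhx9 had 5174, 5260 and 8011 in knockouts and 6071, 7165 and 6120 in controls (-0.096 ± 0.19), and -0.14 without the array labelled control replicate 1. Six4, a dim gene, had 92.4 to 116 in E16.5 knockouts and 67.9 to 103 in controls (0.19 ± 0.19), and 0.28 without knockout replicates 1 and 4. At E14.5 it had 127, 129 and 190 in knockouts and 137, 151 and 143 in controls (0.028 ± 0.22), and -0.0032 without the array labelled control replicate 1. The highest E14.5 values of both genes came from knockout replicate 3.

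Nr0b1 and Cbx2 are a repressive nuclear receptor and a chromatin regulator. In this group RefSeq promoter entries (GRCm38.p6) matched Lhx9, Nr0b1 and Six4, 3 of the 9. Because a nuclear receptor was deleted, the 250 bases before each start were searched on both strands for the nuclear receptor half-site AGGTCA, which 14.02% of 32851 promoters hold. The single match was in Nr0b1, 126 bases before its start, at chrX:86191525-86191774 on the plus strand, shown with the half-site in capitals.
Nr0b1 promoter: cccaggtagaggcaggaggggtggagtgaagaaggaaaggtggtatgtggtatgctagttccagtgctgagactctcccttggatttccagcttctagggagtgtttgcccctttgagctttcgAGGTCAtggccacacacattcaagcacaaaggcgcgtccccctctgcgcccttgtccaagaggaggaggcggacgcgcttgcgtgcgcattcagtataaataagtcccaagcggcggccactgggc
The GATA letters AGATAA (9.99% of promoters), the LIM homeodomain core TAATTA (4.84%) and the letters GCGGGGGCG, bound by WT1 and EGR proteins (2.57%), had no match in these windows. A match is a description of the sequence and not a binding site.

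Nr0b1 had 882, 647, 587 and 672 in E16.5 knockouts, against 578, 649, 464 and 502 in controls. The groups overlapped, with a log2 change of 0.33 ± 0.17 (SE; limma adjusted p = 0.326), and 0.18 without knockout replicates 1 and 4. At E14.5 it had 878, 947 and 736 in knockouts, against 931, 818 and 524 in controls (0.20 ± 0.20, adjusted p = 0.834). Without the array labelled control replicate 1 this was 0.37. Nr0b1 is also made in the adrenal cortex, whose markers had a summed signal of 779.6 to 1109 in E16.5 knockouts and 315 to 423 in controls. Of 5 adrenal markers on the array 3 were tested and 2 rose at E16.5 (Mc2r and Hao2), beside 1.42% of all genes called. The steroidogenic enzymes Cyp11b1 and Cyp21a1 lay under the filter on mean log2 signal. The part of adrenal cells in the Nr0b1 values was not tested.

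Cbx2 had 403, 230, 272 and 472 in E16.5 knockouts, against 327, 236, 253 and 277 in controls. Its high values were those of knockout replicates 1 and 4. The log2 change was 0.27 ± 0.19 (limma adjusted p = 0.473), and -0.11 ± 0.17 without them, so its direction turned. At E14.5 it had 398 to 424 in knockouts and 322 to 442 in controls (0.12 ± 0.22), and 0.014 without the array labelled control replicate 1. The dimmer probe set, 1422059_at, went the other way: 166 to 244 in E16.5 knockouts and 238 to 266 in controls, and 16.2 to 39.4 in E14.5 knockouts, all below the 40.7 to 44.6 of controls. Neither difference passed (limma adjusted p = 0.610 and 0.683 over all probe sets).

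**Figure D3:**
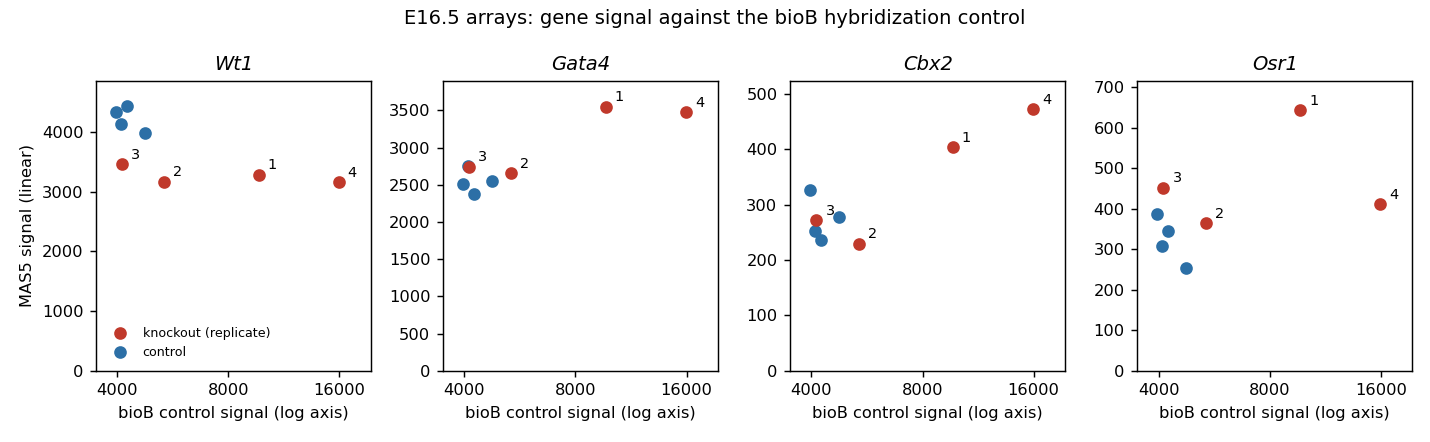
Linear MAS5 signal of 4 genes (vertical axes) against the signal of the bioB hybridization control (horizontal log axis) on the 8 arrays of E16.5 (red, knockout, with its replicate number; blue, control). Knockout replicates 1 and 4 lie apart on bioB; their Gata4 and Cbx2 signals lie above those of all other arrays, whereas the Wt1 signals of all 4 knockouts lie below those of all controls.

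Over the single probe sets, limma called 0 of 20 at E16.5 (0.473% of all probe sets were called) and 0 of 20 at E14.5 (0.0333%). At an unadjusted p under 0.05 there were 2 at E16.5 and 3 at E14.5. Groups did not overlap for 2 of 20 at E16.5 (Wt1 below, the dimmer Gata4 above), beside 7.81% of all probe sets. They did not overlap for 4 of 20 at E14.5 (Osr1, Gata6 and the dimmer Gata4 above, the dimmer Cbx2 below), beside 11.2%. The probe sets under the filter were 1443081_at of Gata6 (2.83 to 39.3 over the 14 arrays) and 1427701_a_at of Six4 (1.22 to 42.3), both overlapping between genotypes.

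The knockout effect was not shown to differ between stages for any of the 9. The difference of effects (E16.5 minus E14.5) was -0.72 ± 0.35 for Osr1 (SE; limma adjusted p = 0.563), and for the other 8 it lay between -0.23 and 0.16. Limma called 0 of the 12406 genes in this comparison, and 0 of the 9 had an unadjusted p under 0.05.

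Between stages the arrays themselves differed. The Gapdh 3′ to 5′ log2 difference was 0.94 to 1.83 at E16.5 and -0.42 to -0.059 at E14.5. That of beta-actin went the other way, with -0.018 to 0.29 at E16.5 and 0.80 to 0.98 at E14.5. The bioB control was 3956 or more at E16.5 and 1239 or less at E14.5. Stage and array processing therefore cannot be told apart. Of 3820 genes with 2 or more probe sets called between stages in controls, 49.6% had probe sets called in opposite directions. In knockouts it was 50.4% of 3602 genes. For knockout against control at E16.5 it was 0 of 15.

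Read from the brightest probe sets, E16.5 against E14.5 called 4 of the 9 in knockouts and 5 of the 9 in controls, beside 60.8% and 64.4% of all genes. In knockouts 1 was higher and 3 were lower, beside 27.0% and 33.8% of all genes, and in controls 2 were higher and 3 lower, beside 28.5% and 35.9%. Gata4 was higher at E16.5 in both genotypes (log2 1.78 ± 0.19 in knockouts and 1.89 ± 0.19 in controls; limma adjusted p = 4.20e-07 and 1.65e-07). Lhx9 was lower in both (-1.46 ± 0.18 and -1.33 ± 0.18), as was Zfpm2 (-1.19 ± 0.16 and -1.14 ± 0.16). Wt1 was lower in knockouts (-0.33 ± 0.14, limma adjusted p = 0.0448) and missed the threshold in controls (-0.20 ± 0.14, adjusted p = 0.219). Six4 was called lower in controls (-0.59 ± 0.20), where Osr1 was called higher (0.97 ± 0.24). In knockouts Six4 had -0.43 ± 0.20 and Osr1 0.25 ± 0.24, without passing.

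These directions depend on the scaling of the arrays. The median change of all genes was -0.077 in knockouts and -0.087 in controls as deposited, -0.20 and -0.21 after quantile normalization, and -0.41 and -0.43 after centring on the median. The share of calls that were higher was 44.4% in knockouts and 44.3% in controls as deposited, 37.4% in each after quantile normalization, and 25.6% and 26.5% after centring. Gata4, Lhx9 and Zfpm2 kept their direction and their call under all of these. Wt1 in controls had -0.20 as deposited, 0.049 after quantile normalization and -0.54 after centring, where it was called. Osr1 in knockouts turned to -0.024 and -0.083.

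**Figure D4:**
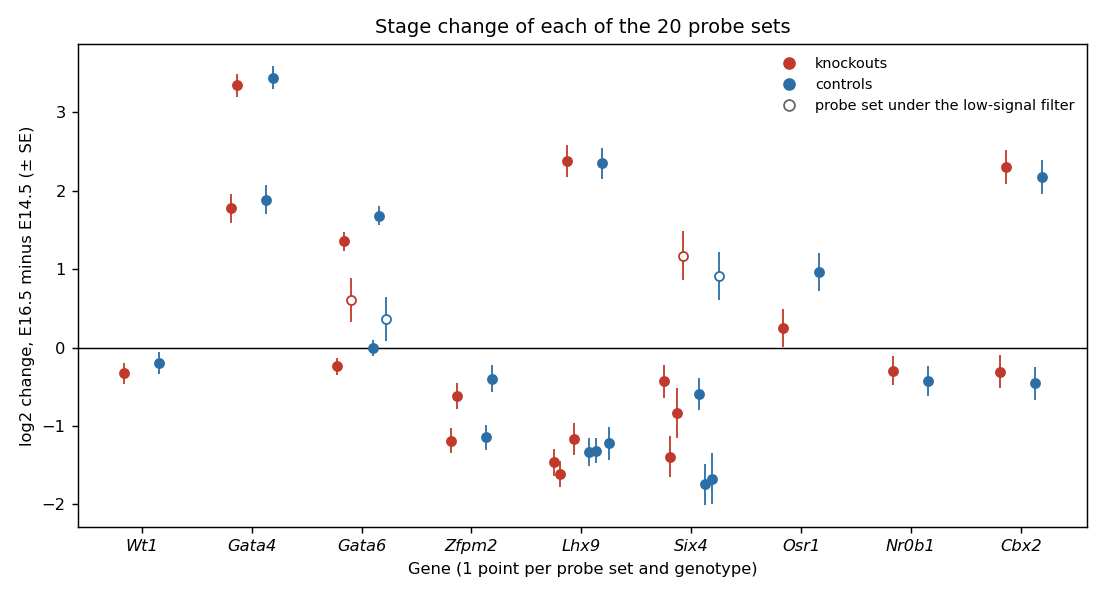
Log2 change from E14.5 to E16.5 ± SE (vertical axis) of each of the 20 probe sets, by gene (red, knockouts; blue, controls; open points, probe sets under the low-signal filter). Lhx9, Six4 and Cbx2 have probe sets on opposite sides of 0 in both genotypes (for Six4 the one above 0 is under the filter, and for Cbx2 the one below 0 was not called), and one Gata6 probe set lies near 0 in controls while another lies well above.

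The probe sets of several members did not agree on the stage change. Lhx9 fell on 3 of its 4 probe sets, to ratios of 0.40 to 0.43 of the E14.5 mean in controls. On the fourth, 1431598_a_at, it was 5.20-fold higher, with 2280 to 3079 in E16.5 controls and 403 to 590.1 in E14.5 controls. The signals of this probe set and of the brightest one ran opposite over the arrays (r = -0.89 over 14 arrays, a description). Knockouts repeated it, with 2302 to 3250 at E16.5 and 387 to 769 at E14.5.

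Gata6 was level between stages on its brightest probe set (ratio 0.998 in controls) and 3.24-fold higher at E16.5 on 1425463_at. There E16.5 controls had 2751 to 2985 and E14.5 controls 797 to 987. Cbx2 had a ratio of 0.718 on its brightest probe set and 5.84 on the dimmer one in controls. Gata4 was higher on both, by 3.73-fold on the brightest and 12.3-fold on the dimmer one. Six4 was called lower on 3 of its 4 probe sets in controls, and higher on the one under the filter. Zfpm2 was lower on both, with ratios of 0.452 and 0.751, and the dimmer one missed the threshold in controls (limma adjusted p = 0.0597 over all probe sets). Over all 20 probe sets, 6 were called higher and 7 lower in knockouts, and 7 and 7 in controls. Of all probe sets 27.6% were higher and 23.4% lower in knockouts (51.0% in all), and 28.4% and 24.1% in controls (52.5% in all).

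The order of group means shows which levels can be told apart. For Gata4 the order from the top was E16.5 knockouts, E16.5 controls, E14.5 knockouts and E14.5 controls, and arrays of neighbouring groups overlapped except between stages. For Lhx9 it was E14.5 controls, E14.5 knockouts, E16.5 controls and E16.5 knockouts, and for Six4 and Zfpm2 it was E14.5 knockouts, E14.5 controls, E16.5 knockouts and E16.5 controls, again with a gap only between stages. For Osr1 the only gap was below E16.5 controls, with E14.5 controls lowest. Neighbours overlapped throughout for Wt1, Nr0b1 and Cbx2. For Gata6 the only gap was between E14.5 knockouts and the next group, E16.5 knockouts, and E14.5 knockouts overlapped E16.5 controls.

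After each group's mean was subtracted, the log2 signals of Lhx9 and Six4 correlated at 0.93 over the 14 arrays, the highest of the pairs among the 9. Without that step they correlated at 0.89, and Lhx9 with Zfpm2 was highest at 0.92. Within groups, Osr1 correlated at 0.74 with Gata6 and at 0.65 with Nr0b1, and Gata4 at 0.62 with Wt1. These are descriptions, and the points share arrays and their processing. The genes that follow were picked as the highest of all genes tested outside the 9, with no test of the values. The genes outside the 9 closest to Wt1 after subtraction of group means were Slc38a1 (0.95), Wipi1 (0.94) and Pygb (0.94). Those closest to Gata4 were Dhx38 (0.93), Ttc7b (0.93) and Git1 (0.92). Gnaq was first for both Lhx9 (0.87) and Six4 (0.91), and Zfp27 was within the first 3 of both. The others led with Stat6 for Osr1 (0.94), Zdhhc24 for Gata6 (0.88), Pcnp for Zfpm2 (0.95), Slc37a3 for Nr0b1 (0.90) and Zc3hc1 for Cbx2 (0.95).

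Other genes of the ridge program gave no call either. Of 14 further gonadal ridge genes 10 were tested, and 0 were called at either stage, beside 1.42% of all genes at E16.5 and 0.0403% at E14.5. With so few genes, 0 calls lie near that share. The median log2 change of the 10 was -0.023 at E16.5, where 4 had an unadjusted limma p under 0.05, and -0.0096 at E14.5, where 1 did. Tcf21, a factor of gonadal and renal mesenchyme, had 1384 ± 380 in E16.5 knockouts and 2396 ± 200 in controls (SD, n = 4 each), with a log2 change of -0.83 ± 0.23 (limma adjusted p = 0.0759). Nr5a1, the steroidogenic factor SF1, had 0.43 ± 0.14 at E16.5 (adjusted p = 0.134). Gadd45g, which acts before Sry in XY gonads, had 0.42 ± 0.16 at E16.5 (adjusted p = 0.172) and -0.57 ± 0.18 at E14.5 (adjusted p = 0.381).

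Relatives and partners of the 9 also gave no call, again near the share of all genes called. Of 16 paralogs, such as Gata2, Nr0b2 and Cbx7, 10 were tested, with 0 called at either stage. The closest at E16.5 was Cbx7, a Polycomb subunit like Cbx2, at 0.51 ± 0.18 (adjusted p = 0.141), and it had -0.43 ± 0.20 at E14.5 (adjusted p = 0.575). All 12 Polycomb repressive complex partners of Cbx2 were tested, with 0 called, and the smallest p at E16.5 was that of Scmh1 (0.37 ± 0.15, adjusted p = 0.204).

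Genes named in the literature as downstream of these factors gave 1 call. Of all genes tested, 1.42% were called at E16.5 and 0.0403% at E14.5. Of 10 tested genes reported as Wt1 targets, Cdkn1a, a cell cycle inhibitor that p53 also induces, rose at E16.5. It had 1006 ± 124 in knockouts and 441 ± 33.9 in controls (SD, n = 4 each), a log2 change of 1.16 ± 0.16 (limma adjusted p = 0.00273). The other 9 were not called at E16.5, and 0 of 10 were called at E14.5. Of 7 tested genes that depend on Gata4 and Fog2 in the ovary, 0 were called. Foxl2, the pregranulosa forkhead factor, came closest at E16.5 with 1425 ± 199 in knockouts and 2524 ± 150 in controls (SD, n = 4 each; log2 change -0.83 ± 0.20, adjusted p = 0.0504). The inhibin subunit Inha had 0.52 ± 0.14 (adjusted p = 0.0632), with all knockouts above all controls for Inha and below them for Foxl2. At E16.5, 10.4% of all genes did not overlap in either direction.

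Calls between genotypes in the remaining marker lists are given beside 1.42% of all genes called at E16.5 and 0.0403% at E14.5. At E16.5 Wnt5a and Pdgfra fell among 6 tested interstitial markers (log2 -1.34 ± 0.20 and -1.25 ± 0.19) and the complement gene C1qb rose among 5 macrophage markers (0.82 ± 0.20, limma adjusted p = 0.0480). Germ cell (8 tested), endothelial (5), mesonephros (3), Sertoli (3) and kidney progenitor (1) lists gave 0 calls at E16.5, and 0 markers of any list were called at E14.5. Their members with the smallest p at E16.5 were Mael (0.26 ± 0.12), Cdh5 (0.31 ± 0.16), Pax8 (0.74 ± 0.22), Ptgds (0.62 ± 0.23) and Cited1 (0.42 ± 0.22), in the same order of lists.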

How the data were processed

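Per the labels, RNA came from a PicoPure extraction and was amplified with an Affymetrix in vitro transcription kit and labelled with biotin. The authors deposited a linear intensity for each probe set. The submitters' processing notes name MAS5 and Affymetrix Expression Console, without versions. Each array had a trimmed mean of 500 (2% dropped at both ends), so a global difference in RNA amount cannot be seen.

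Of 45037 probe sets other than the 64 controls, 34945 carried 1 symbol, 932 several and 9160 none listed. Signals were taken as log2(signal + 16), which understates changes of dim genes. A gene was represented by the probe set with the highest mean log2 signal, and genes above the 40th percentile of that mean (a signal of 62.0) were tested. A second fit held all 45037 probe sets with no filter. Both used limma 3.58.1 (lmFit, eBayes with trend) in R 4.3.3 with the data.table package (1.17.8), with 4 groups in 1 fit of 14 arrays, two-sided tests and Benjamini-Hochberg adjustment (threshold 0.05). These p-values are limma's throughout. The steps were tested on simulated data with independent normal noise for each gene. Those data held no outlying arrays, so that test does not cover such arrays. Promoters and figures used Python 3.11.15, pandas 2.3.3 and matplotlib 3.10.9.

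Named were all 9 genes, the called members of each other list or else 1 or 2 with the smallest p in a comparison, Nr2f2, and the 3 genes most correlated with each of the 9, of which the leading ones are given. Wt1os and other markers given beside Osr1 were chosen after their values were seen. Members and lists were chosen with earlier results of these data known. Replicate numbers were not used as pairs in the main fit, and the labels do not state whether they mark any. Deviations of same-numbered arrays correlated at 0.19, -0.0022, 0.058 and 0.43 at E16.5, and -0.0025, 0.16 and -0.048 at E14.5. Those of arrays with different numbers correlated at -0.30 to 0.25 at E16.5 and -0.16 to 0.14 at E14.5. Pairing at E16.5 is therefore not settled. Alternatives changed the pseudocount, scaling, filter, probe set rule, spread model, arrays and covariates. The number of arrays limits the precision, and p-values measure the spread between them.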

Additional observations from a re-analysis of the deposited data

Results flagged for a closer look

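Of 40 groups of 4 arrays (20 probe sets, both genotypes at E16.5), 1 held an array far from the others. On the Six4 probe set 1439753_x_at, knockout replicate 1 at E16.5 had 73.0, while the other knockouts had 48.5, 51.4 and 52.0. Its gap to the nearest was 0.860 of the whole range, above the 95% critical value of Dixon's test for 4 values. Chance gives such a gap in about 1 of 20 groups. That array also had a bioB signal of 9664; the part of this in the Six4 value was not tested.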

How the results depend on the processing

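No change in settings made more than 1 of the 9 genes pass between genotypes. With the replicate number as a block, 1 gene passed at E16.5 (Wt1, lower, -0.37, limma adjusted p = 0.0473) and 0 at E14.5. The labels do not state whether the numbers mark pairs, and the block changed no other call between genotypes among the 9. Without knockout replicate 3 at E14.5, 1 gene (on 1 probe set) passed, Osr1. Leaving out 1 array gave 0 to 1 genes called at E14.5 and 0 at E16.5; between stages it gave 3 to 4 in knockouts and 4 to 7 in controls. Between stages, 8 genes were called in knockouts and 9 in controls after median centring, and 7 in knockouts with the mean of a gene's probe sets. The cause of these was not tested.

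Values near 0 changed sign, without a call unless stated. For knockout against control at E16.5, Gata6 had -0.028 with median centring, -0.095 with the mean of probe sets, -0.00021 with the Gapdh covariate, -0.022 with the bioB covariate and -0.013 without knockout replicates 1 and 4. Cbx2 had -0.010, -0.090, -0.12 and -0.11 under the last 4 of these, Zfpm2 had -0.093 and -0.070 with the mean and the Gapdh covariate, and Lhx9 had 0.037 with bioB. At E14.5 Six4 had -0.018 with quantile normalization, -0.022 with median centring and -0.23 with the mean, where Cbx2 had -0.15. Between stages, quantile normalization gave Wt1 0.049 and Gata6 0.11 in controls, and Osr1 -0.024 in knockouts (-0.083 with median centring). With the mean of probe sets, Gata6 (0.56 in knockouts and 0.84 in controls) and Cbx2 (0.999 and 0.86) were called higher at E16.5, where that setting averages in a probe set that was higher at E16.5. Leaving out 1 array gave, at E16.5, -0.031 to 0.048 for Gata6 and -0.053 to 0.17 for Zfpm2. At E14.5 it gave -0.30 to 0.013 for Lhx9, -0.039 to 0.37 for Nr0b1 and -0.14 to 0.12 for Six4. It gave -0.052 to 0.036 for Gata6 between stages in controls, and -0.29 to 0.043 for the difference of the Wt1 effect between stages.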
